A study of Mus musculus with 10 samples.

Results

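The transcripts described here encode 2 thymosins, 2 cytoplasmic actins and 6 proteins that bind actin monomers or filaments: Tmsb4x, Tmsb10, Actb, Actg1, Pfn1, Cfl1, Flna, Tpm4, Vasp and Tagln2. They were taken by symbol from a table of gene counts, which held a row for each of the 10 among its 23420 symbols. All 10 had counts, as did 4692 of the symbols, and all 10 were among the 1016 genes that passed the filter on low counts. The RNA came from platelets of adult mouse blood, sorted by flow cytometry into 5 libraries of platelets with the red fluorescent protein Tomato (Tomato+) and 5 libraries without it (Tomato-). The comparison asks which transcripts differ between these fractions. The promoter that drives Tomato, the strain of the mice and the animals behind each library were not given in the sources used here. All p-values therefore describe variation among libraries that may be repeats of 1 animal or pool.

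Actin is the most abundant structural protein of the platelet, and platelets change shape and spread by turning soluble actin monomers into filaments. Thymosin beta 4 holds monomers in reserve and profilin delivers them to growing filament ends, where VASP favours elongation. Cofilin severs old filaments, tropomyosin coats and stabilises them, and filamin crosslinks them and ties them to membrane receptors. Platelets have no nucleus, so their mRNA is mostly inherited from the megakaryocytes that shed them.

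Library totals lay between 5.41 and 16.2 M counts (M, 1000000), at 11.9 ± 3.57 M in Tomato+ and 8.55 ± 2.15 M in Tomato- libraries (mean ± SD, n = 5 each). Between 1118 and 2450 genes had a count in the Tomato+ libraries, against 807 to 2430 in the Tomato- libraries, and Tomato- replicates 1, 2 and 5 had fewer than 1000. The ribosomal RNA precursor Rn45s, which is part of every total, took 5.52 ± 1.64% of Tomato+ and 3.80 ± 1.38% of Tomato- counts. All 10 platelet markers had counts, led by the chemokine genes Ppbp and Pf4, and their summed level was 57742 ± 7006 in Tomato+ and 59915 ± 6316 in Tomato- libraries, in counts per 1000000 library counts (CPM). Of 19 leukocyte markers 9 had counts, with sums of 6743 to 10340 CPM in Tomato+, against 7294 to 10709 CPM in Tomato- libraries. Lyz2, the lysozyme of myeloid cells, made up most of them, at 7672 ± 1117 CPM in Tomato+, against 7857 ± 1189 CPM in Tomato- libraries, and Laptm5 followed. The T cell genes Cd3e, Cd3d and Cd3g, the B cell genes Cd79a, Cd79b and Ms4a1, and the myeloid genes S100a8, Csf1r and Csf3r were at 0 in all 10 libraries, as was Coro1a. Of 10 red cell markers with a row 4 had counts, with sums of 401 to 931 CPM in Tomato+, against 47.8 to 4059 CPM in Tomato- libraries. The highest Tomato- sum was that of replicate 4, and the next was 1025 CPM. Of the 2 red cell markers tested, 1 estimate was higher in Tomato+ and 1 lower. The lower was the haemoglobin gene Beta-s, which lay between 1.38 and 338 CPM in Tomato+, against 44.2 to 3257 CPM in Tomato- libraries. Endothelial markers summed to 464 to 1501 CPM in Tomato+, against 130 to 1725 CPM in Tomato- libraries. Of the 7 listed 4 had counts, with Pecam1 and Tie1 in the lead, while Cdh5, Tek and Emcn had none in any library. Pecam1 supplied most of the mean endothelial sum in both groups. For Tomato+ its mean was 695 CPM of a mean sum of 815 CPM, and for Tomato- 600 of 781 CPM. The part of these markers in the results below was not tested. In such bulk samples, fewer cells of a type and less RNA per cell cannot be told apart.

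The thymosins and the actins are each a pair of related genes, and how far their sequences differ bears on how well short reads can be assigned. Tmsb4x lies on chromosome X (167207093 to 167209315) and Tmsb10 on chromosome 6 (72957347 to 72958748). Actb lies on chromosome 5 (142903115 to 142906754) and Actg1 on chromosome 11 (120345690 to 120348542). All 4 are on the minus strand of GRCm38 in the GENCODE M21 annotation, from which the other coordinates come too. The complete coding sequences of the 2 thymosins are printed from that annotation, 5′ to 3′, with capitals at the bases where they differ from each other.
Tmsb4x: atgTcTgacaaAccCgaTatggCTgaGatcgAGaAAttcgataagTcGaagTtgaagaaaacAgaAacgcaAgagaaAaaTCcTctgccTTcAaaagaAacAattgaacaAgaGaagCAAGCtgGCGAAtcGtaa
Tmsb10: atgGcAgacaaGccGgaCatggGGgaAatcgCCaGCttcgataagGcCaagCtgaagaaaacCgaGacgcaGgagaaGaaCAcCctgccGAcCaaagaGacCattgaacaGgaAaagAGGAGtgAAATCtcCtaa
Over these 135 bases they differ at 40, and the longest stretch they share is 10 bases. The actins are closer, as the first 60 coding bases show, with capitals again at the differing bases.
Actb: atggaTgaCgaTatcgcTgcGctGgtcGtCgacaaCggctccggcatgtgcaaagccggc
Actg1: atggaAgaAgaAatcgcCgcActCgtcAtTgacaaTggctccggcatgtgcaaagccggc
These stretches differ at 9 bases, and the whole coding sequences, of 1128 bases each, are identical at 88.7% of positions with a longest shared stretch of 62 bases. How reads that fit both actins were counted was not given in the sources used here, so the split between Actb and Actg1 counts is less certain than that between the thymosins.

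Together the 10 genes took 17.1 ± 1.28% of library counts in Tomato+ and 15.9 ± 1.31% in Tomato- libraries (mean ± SD, n = 5 each). Tmsb4x supplied 74.9 ± 3.40% of this sum in Tomato+ and 71.6% (64.0 to 77.5%) in Tomato- libraries. The other 9 genes together took 4.25 ± 0.387% of Tomato+ and 4.51 ± 0.817% of Tomato- counts. With Rn45s and Tmsb4x both left out of the total, the share of these 9 was 0.104 percentage points lower in Tomato+, so it was the share of Tmsb4x that made the sum higher in Tomato+. No test was run on the sums, since the genes were chosen with earlier results of these data known.

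**Figure D1:**
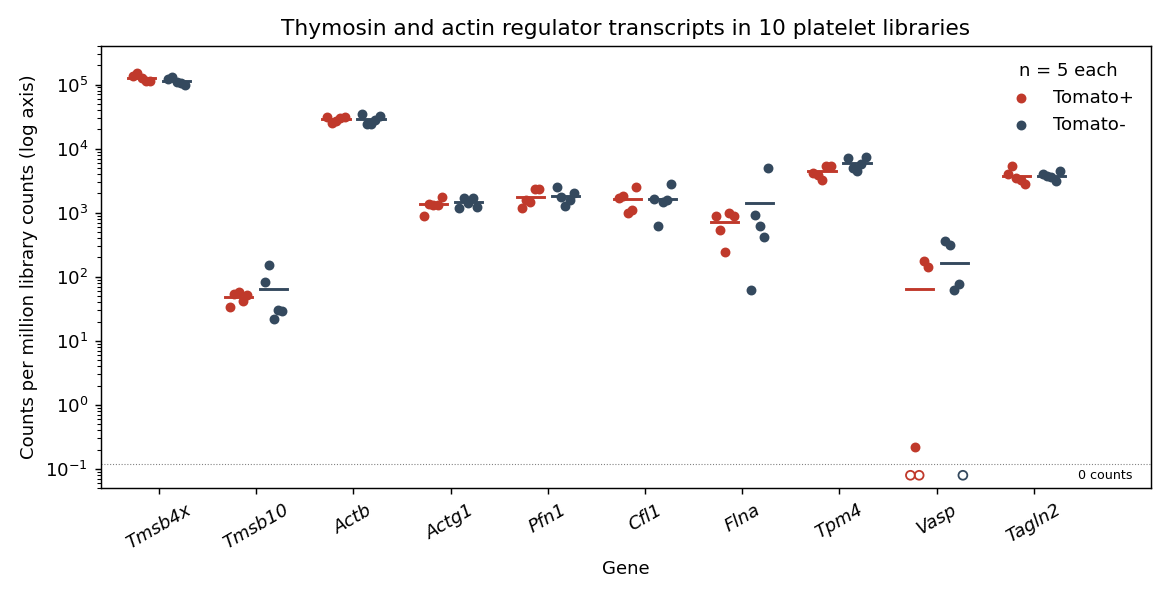
Level of each of the 10 genes in every library, in counts per 1000000 library counts on a log axis, with Tomato+ libraries left of Tomato- libraries. Points are libraries, horizontal lines are means of 5, and open circles below the dotted line are libraries with 0 counts. The groups overlap for every gene, and 3 libraries have 0 counts of Vasp.

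Tmsb4x, the gene of the monomer-holding peptide thymosin beta 4, had the highest count of any gene in all 10 libraries. Its levels were 135597, 148675, 128117, 114248 and 114685 CPM in Tomato+ replicates 1 to 5, against 122568, 132568, 107816, 106627 and 99403 CPM in Tomato- replicates 1 to 5. The Tomato+ values reach higher and the Tomato- values lower, but 2 Tomato- libraries lie inside the Tomato+ range. In edgeR's quasi-likelihood test with TMM scaling the log2 fold change, Tomato+ over Tomato-, was 0.41 (SE 0.10, 95% interval 0.19 to 0.62), with an unadjusted p of 0.0011 and an adjusted p of 0.9996 over all genes tested. Of the 1016 genes tested 0 were called at an adjusted p under 0.05 (0.0%), and of the 10 actin genes 0 were called. Unadjusted p-values under 0.05 were found for 9 genes, of which Tmsb4x alone was one of the 10. These 9 are a smaller fraction of the 1016 tests than the 0.05 expected if no gene differed. The test was thus cautious here, and 0 calls do not show that levels were equal. DESeq2 called 216 of 4692 genes (4.6%) and limma voom 1 of 1016 (0.0984%), and 0 of the 10 were among either. Limma voom with its robust option called 2 of 1016 genes (0.197%), of which Tmsb4x was 1 (log2 fold change 0.55, adjusted p = 0.0407), a call that no other test gave. In that fit the median log2 fold change of all tested genes was 0.95 and that of Actb 1.02, both above the Tmsb4x estimate. TMM scaling set the contrast 0.24 above scaling by total counts on the log2 scale, and the median log2 fold change of all tested genes was 0.21 under TMM and -0.03 under total counts. Relative to total counts the log2 fold change of Tmsb4x was 0.17 (95% interval -0.0071 to 0.35, edgeR adjusted p = 0.9998).

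Tmsb10, the second thymosin, which binds actin monomers in the same way, ranked between 506 and 1513 among all genes, depending on the library. It had 34.2, 53.6, 57.9, 41.8 and 51.3 CPM in the Tomato+ libraries, against 83.1, 153.6, 21.6, 29.8 and 29.6 CPM in the Tomato- libraries. The 2 highest and the 3 lowest values were all in Tomato-, so the Tomato+ libraries sat inside the Tomato- range. Its log2 fold change was -0.03 (95% interval -3.84 to 3.77, edgeR adjusted p = 0.9996). Without Tomato- replicate 2 the mean of the other 4 Tomato- libraries was 41.0 CPM, and the log2 fold change was 0.46. It was also positive, at 0.014 and 0.0055, without Tomato+ replicate 4 and without Tomato- replicate 1. Tmsb10 took 0.0376 ± 0.00815% of all thymosin counts in Tomato+, against 0.0522 ± 0.0400% in Tomato- libraries, and the means differed by -0.0147 percentage points (exact two-sided permutation test, p = 0.532, adjusted over 3 ratios 0.571). Without Tomato- replicate 2 this difference was 0.00120 percentage points. Of the 9 further thymosin, profilin and transgelin genes listed (such as Pfn2 and Tagln), Tmsb15a alone had any count, in 1 Tomato- library.

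Actb, the gene of cytoplasmic beta actin, ranked between 3 and 7 among all genes in each library. It had 31060, 25429, 26578, 29562 and 31416 CPM in Tomato+, against 34567, 24302, 24635, 27729 and 32786 CPM in Tomato- libraries. Every Tomato+ library lay inside the Tomato- range, and the means were 2.88 ± 0.268% of counts in Tomato+ and 2.88 ± 0.469% in Tomato-. Its log2 fold change was 0.23 under TMM (95% interval -0.07 to 0.54) and 0.00027 relative to total counts (95% interval -0.23 to 0.23; edgeR adjusted p = 0.9996 and 0.9998). Actb was thus among the steadier genes here, with a coefficient of variation of 9.32% in Tomato+ and 16.3% in Tomato- libraries. Over the 50 most abundant of the 225 genes with at least 10 counts in every library, the median was 18.5% in Tomato+ and 22.4% in Tomato-.

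Actg1, the gene of cytoplasmic gamma actin, had 880, 1389, 1340, 1338 and 1780 CPM in Tomato+, against 1175, 1688, 1418, 1721 and 1220 CPM in Tomato- libraries. Tomato+ libraries held both the lowest and the highest value. Its log2 fold change was 0.13 under TMM and -0.10 relative to total counts, with 95% intervals of -0.81 to 1.07 and -0.95 to 0.75 (edgeR adjusted p = 0.9996 and 0.9998). As a share of both cytoplasmic actins, Actg1 made up 2.76, 5.18, 4.80, 4.33 and 5.36% of counts in Tomato+, against 3.29, 6.50, 5.44, 5.84 and 3.59% in Tomato- libraries. The difference of the means was -0.446 percentage points (4.49 ± 1.04% in Tomato+ and 4.93 ± 1.42% in Tomato-, exact two-sided permutation p = 0.571, adjusted over 3 ratios 0.571). This difference was -0.0139 without Tomato+ replicate 1, and -0.857, -0.055, -0.218 and -0.782 without Tomato- replicates 1, 2, 4 and 5 in turn. With Tomato- replicates 1, 2 and 5 all left out it was -1.16 percentage points (exact permutation, adjusted p = 0.286). The Tomato- values then left, 5.44 and 5.84%, both lay above the highest Tomato+ value of 5.36%. With so few libraries no arrangement could have given a small p, so this test cannot decide whether the groups differ. Exons of Actg1 overlap the small RNA genes Gm23419 and Mir6935 on its own strand. The sarcomeric and smooth muscle actins Actc1 and Acta2 were low, at 9.48 ± 13.6 and 4.87 ± 7.36 CPM in Tomato+, against 7.60 ± 11.0 and 3.52 ± 3.84 CPM in Tomato- libraries.

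**Figure D2:**
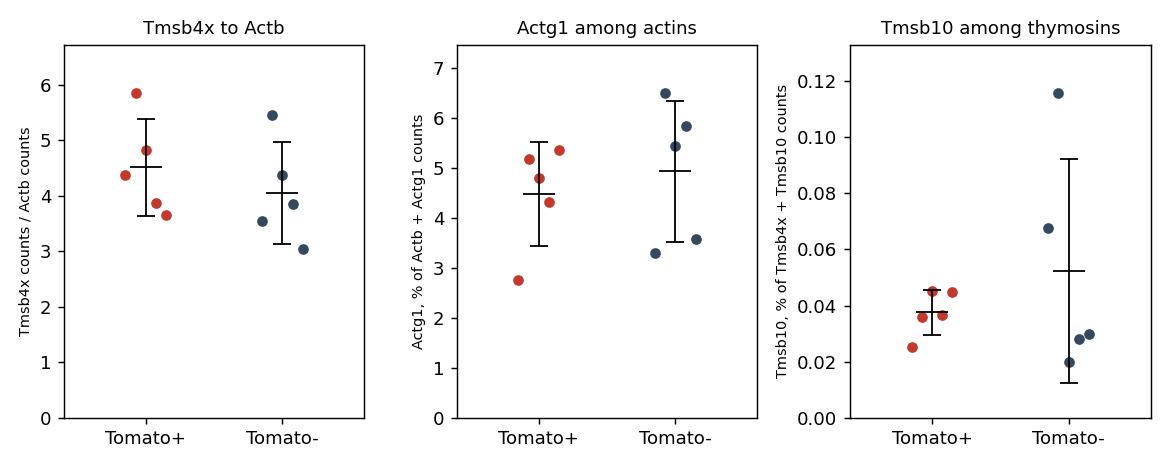
Ratios that do not depend on how libraries are scaled, with Tomato+ left of Tomato-: Tmsb4x counts over Actb counts, Actg1 as a percentage of Actb and Actg1 counts, and Tmsb10 as a percentage of Tmsb4x and Tmsb10 counts. Points are libraries, and bars are mean and SD (n = 5 each). The groups overlap in all 3 panels, and 1 Tomato- library stands at 0.116% in the Tmsb10 panel.

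A ratio to Actb within each library is free of the library total. There were 4.37, 5.85, 4.82, 3.86 and 3.65 Tmsb4x counts per Actb count in Tomato+, against 3.55, 5.45, 4.38, 3.85 and 3.03 in Tomato- libraries. The groups overlapped over most of their range. Between same-numbered libraries the Tomato+ ratio was always the higher, though barely so in replicate 4. Whether those libraries share an animal was not given in the sources used here, and the test below treats them as unpaired. The means were 4.51 ± 0.875 in Tomato+, against 4.05 ± 0.924 in Tomato-, and differed by 0.16 on the log2 scale (exact two-sided permutation p = 0.381, adjusted over 3 ratios 0.571, smallest possible p 0.00794). It was 0.064 without Tomato+ replicate 2, 0.066 without Tomato- replicate 5 and 0.28 without Tomato- replicate 2. Per kilobase of annotated exon the ratio was 8.81 ± 1.71 in Tomato+ and 7.92 ± 1.81 in Tomato-.

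Tpm4 (chromosome 8, 72134975 to 72153142, plus strand), a tropomyosin that coats actin filaments, was the gene whose ratio to Actb came closest to separating the groups. Tomato+ libraries held 13.3, 15.2, 12.3, 18.195 and 17.0 Tpm4 counts per 100 Actb counts, against 20.9, 20.8, 18.189, 20.7 and 22.4 in Tomato- libraries. The groups overlapped only through Tomato+ replicate 4 and Tomato- replicate 3, which were nearly equal. The means were 15.2 ± 2.46 in Tomato+ and 20.6 ± 1.53 in Tomato- libraries. With Actb counts as the scale, the log2 fold change of Tpm4 was -0.44 (SE 0.20, 95% interval -0.86 to -0.02), with an unadjusted p of 0.0396 and an edgeR adjusted p of 0.9999 over 1015 genes, of which 0 were called (0.0%). Unadjusted p-values under 0.05 were found for 8 genes on this scale. The ratio in the 3 Tomato- libraries with fewer than 1000 detected genes was 20.8 to 22.4, and in the other 2 it was 18.2 and 20.7.

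In CPM, Tpm4 had 4143, 3874, 3261, 5379 and 5329 in Tomato+, against 7237, 5066, 4481, 5733 and 7354 in Tomato- libraries. The 3 highest values were in Tomato- and the 3 lowest in Tomato+. Its log2 fold change was -0.44 relative to total counts (95% interval -0.89 to 0.0038, unadjusted p = 0.0517) and -0.19 under TMM (-0.71 to 0.33), with edgeR adjusted p = 0.9998 and 0.9996. The difference in share of counts was -0.158 percentage points with all libraries and -0.0710 without Tomato- replicates 1, 2 and 5. Exons of Tpm4 overlap Gm26586 on the opposite strand, and the counting may have ignored strand, a setting not given in the sources used here.

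**Figure D3:**
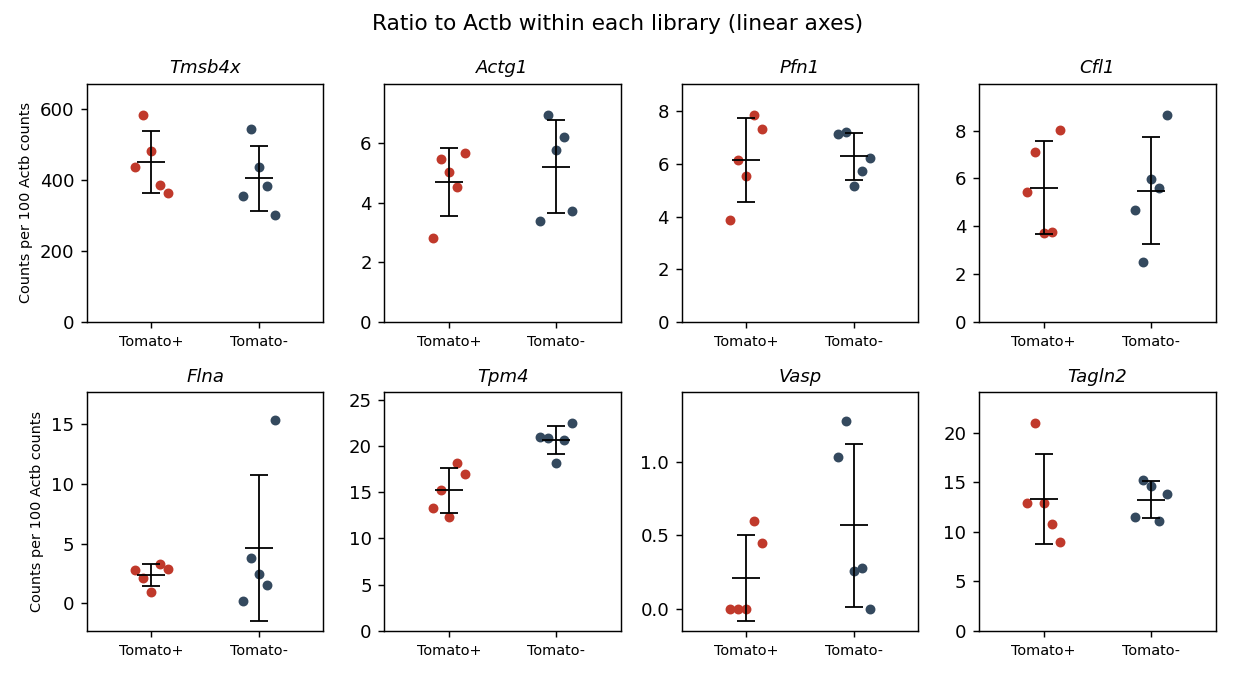
Each panel gives the counts of 1 of 8 genes per 100 Actb counts in each library on linear axes, with Tomato+ left of Tomato-. Points are libraries, and bars are mean and SD (n = 5 each). Tpm4 averages 15.2 in Tomato+ and 20.6 in Tomato-, while in the other panels most libraries of the groups share a range, and Flna has 1 Tomato- library at 15.4.

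Of the 10 genes 0 had CPM that kept the groups wholly apart, where 5 of all 1016 genes tested were higher (0.492%) and 1 lower (0.0984%) in every Tomato+ library. Of the 9 ratios to Actb 0 did so, where 3 of 1015 genes were higher (0.296%) and 4 lower (0.394%).

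Pfn1 (chromosome 11, 70651850 to 70654644, minus strand), the gene of profilin 1, which recharges actin monomers with ATP and feeds them to filament ends, had 1202, 1563, 1470, 2328 and 2310 CPM in Tomato+, against 2476, 1755, 1272, 1587 and 2041 CPM in Tomato- libraries. The spread within each group exceeded the distance between the means, 1775 ± 514 in Tomato+ and 1826 ± 458 in Tomato-. Its log2 fold change was 0.24 under TMM and -0.04 relative to total counts.

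Vasp (chromosome 7, 19256929 to 19271817, minus strand), the gene of a protein that speeds filament elongation at the leading edge and is a standard target of cyclic nucleotide signalling in platelets, was counted unevenly. It had 0, 0.219, 0, 176.7 and 141.1 CPM in Tomato+, against 358.2, 311.2, 62.8, 76.6 and 0 CPM in Tomato- libraries. The value of 0.219 CPM was 3 counts, so 3 Tomato+ libraries and 1 Tomato- library were at or under the level of 3 counts, which ranged from 0.185 to 0.554 CPM over the libraries. No other gene of the 10 was missing from a library. The log2 fold change of Vasp was -0.94 with a 95% interval of -6.38 to 4.50 (edgeR adjusted p = 0.9996), an interval that spans large differences in both directions. The estimate was -0.091 without Tomato- replicates 1, 2 and 5.

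Cfl1 (chromosome 19, 5490455 to 5495201, plus strand), the gene of cofilin 1, had 1683, 1810, 987, 1118 and 2516 CPM in Tomato+, against 1613, 610, 1477, 1558 and 2839 CPM in Tomato- libraries. The Tomato- libraries held both extremes, and the means were 1623 ± 611 CPM in Tomato+, against 1619 ± 795 CPM in Tomato-. The log2 fold change was 0.23 under TMM (95% interval -0.77 to 1.23), 0.0033 relative to total counts, and -0.03 under TMM without Tomato- replicate 2. Exons of Cfl1 overlap Snx32 on the opposite strand, so the limit on strand given for Tpm4 holds for Cfl1 too.

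Flna (chromosome X, 74223461 to 74249820, minus strand), the gene of filamin A, which links actin to the von Willebrand factor receptor and to integrins, had 878, 537, 244, 980 and 895 CPM in Tomato+, against 62.9, 922, 615, 417 and 5043 CPM in Tomato- libraries. The Tomato- libraries held both the lowest and the highest value, 80.2-fold apart, against 4.02-fold in Tomato+. The log2 fold change was -0.65 (95% interval -2.52 to 1.22, edgeR adjusted p = 0.9996), and without Tomato- replicate 5 it was 0.70. The mean of the 4 remaining Tomato- libraries was 504 ± 360 CPM, against 1412 ± 2054 CPM with all 5. That library had the fewest counts (5.41 M) and the fewest detected genes (807). Its platelet marker sum of 59482 CPM lay within the range of the other libraries. Its leukocyte (10709 CPM) and endothelial (1725 CPM) sums were the highest of the 10. The next highest were close, at 10346 CPM in Tomato- replicate 3 and 1501 CPM in Tomato+ replicate 3. In Tomato- replicate 5, 2 of 19 leukocyte and 2 of 7 endothelial markers had counts. The part of these sums in the Flna value was not tested.

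Tagln2 (chromosome 1, 172500047 to 172507380, plus strand), the gene of transgelin 2, an actin-binding protein of the calponin family, had 4023, 5323, 3435, 3203 and 2824 CPM in Tomato+, against 3981, 3689, 3605, 3082 and 4529 CPM in Tomato- libraries. Its mean was 3761 ± 975 CPM in Tomato+, against 3777 ± 531 CPM in Tomato-, and Tomato+ libraries again held both extremes. The log2 fold change was 0.23 under TMM (95% interval -0.31 to 0.77) and -0.0060 relative to total counts. For Pfn1, Cfl1 and Tagln2 the edgeR adjusted p was 0.9996 under TMM and 0.9998 under total counts.

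**Figure D4:**
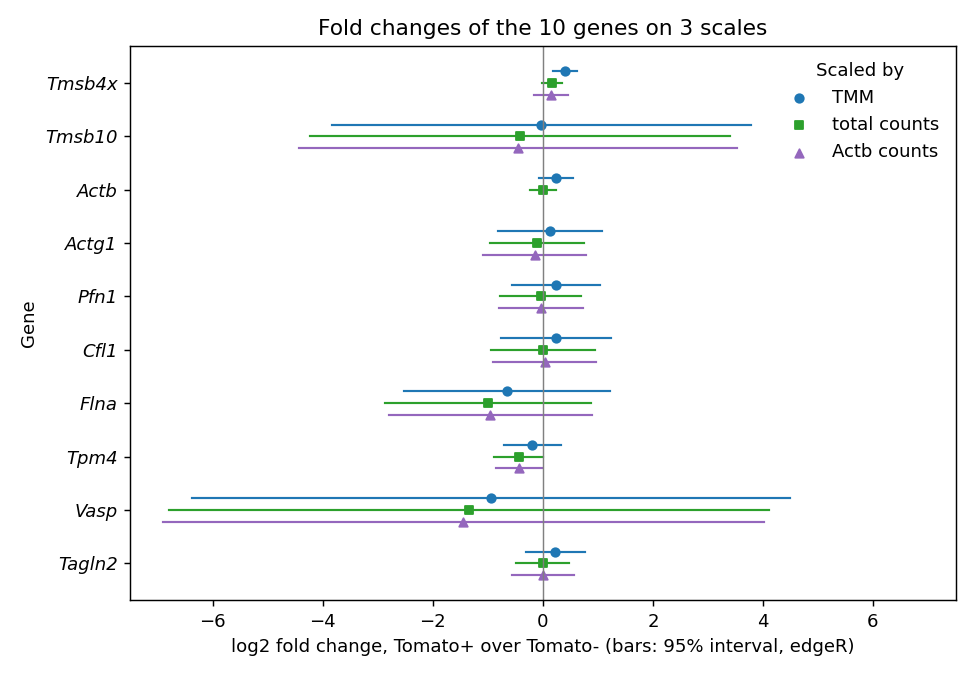
Log2 fold change of each gene, Tomato+ over Tomato-, with 95% intervals from edgeR on TMM, total-count and Actb-count scales (n = 5 libraries each; Actb has no value on its own scale). All intervals include 0 except those of Tmsb4x under TMM and Tpm4 relative to Actb, neither of which passed adjustment over all genes in edgeR.

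Levels of different genes were compared per kilobase of annotated exon over all 10 libraries. Tmsb4x stood first with 88279 ± 11137 CPM per kilobase, above Actb with 10753 ± 1344, Tpm4 with 2354 ± 611 and Tagln2 with 1810 ± 356. Pfn1 followed with 749 ± 191, Cfl1 with 570 ± 235, Actg1 with 525 ± 104, Flna with 113 ± 153, Tmsb10 with 43.6 ± 30.4 and Vasp with 43.1 ± 50.8. Ranges of neighbours did not overlap between Tmsb4x and Actb, between Actb and Tpm4, and between Tagln2 and Pfn1, while all other neighbours overlapped. With the longest coding transcript as the length, Pfn1 came to 2091 ± 534 CPM per kilobase and its range overlapped that of Tagln2, and Actg1 stood above Cfl1. Per kilobase of exon Actb was 22.5 ± 7.22 times Actg1 in Tomato+ and 20.7 ± 6.76 times in Tomato- libraries. Tmsb4x was 2590 ± 662 times Tmsb10 in Tomato+ and 2657 ± 1560 times in Tomato- libraries.

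The 10 genes also differed in how far libraries of 1 group spread. The coefficient of variation of CPM was 11.4% in Tomato+ and 11.8% in Tomato- for Tmsb4x, the lowest of the 10 in Tomato-, while Actb was the lowest in Tomato+. It was 21.2% for Tpm4, 23.7% for Actg1, 25.9% for Tagln2 and 29.0% for Pfn1 in Tomato+, and 21.5%, 17.6%, 14.1% and 25.1% for the same genes in Tomato-. Cfl1 (37.7% in Tomato+ and 49.1% in Tomato-) lay near the median of the 225 genes with 10 counts in every library, which was 34.0% in Tomato+ and 46.4% in Tomato-. Flna had 43.8% in Tomato+ and 145% in Tomato-, and Tmsb10 had 20.1% in Tomato+ and 88.1% in Tomato-. Counting error was small beside this, since 95% Wilson intervals spanned at most 2.81% of the value to either side in any library for 7 of the 10 genes, 8.66% for Flna and 15.5% for Tmsb10. Vasp is the exception, since its library with 3 counts had an interval of up to 130% of the value. These intervals are on reads without molecular identifiers, so they do not cover the sampling of the starting RNA.

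**Figure D5:**
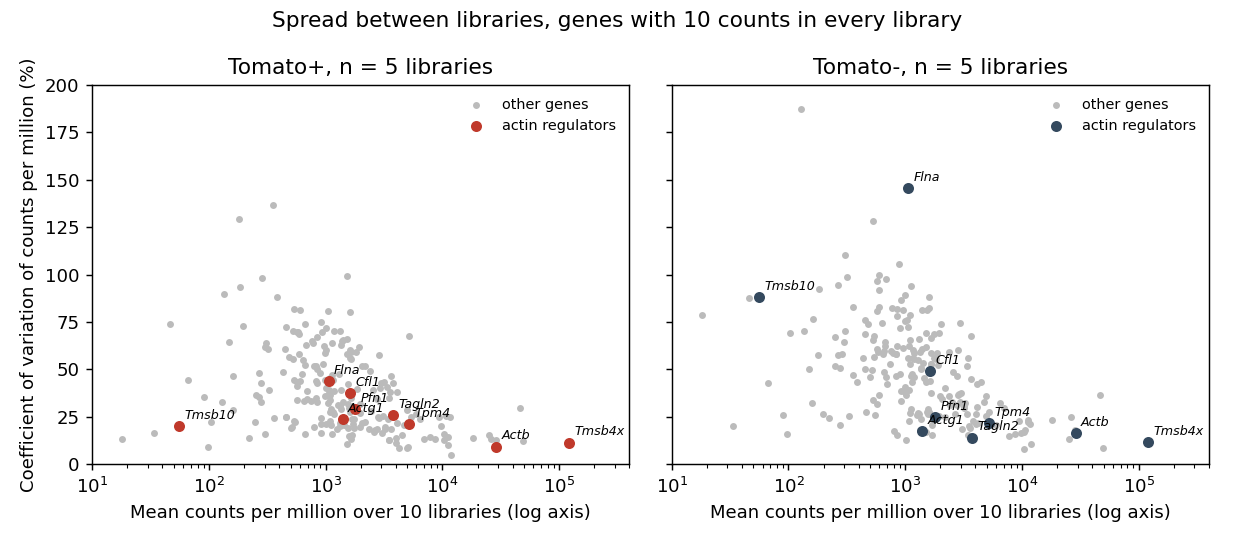
Coefficient of variation of CPM within each group (%) against mean level over 10 libraries (log axis), for the 225 genes with at least 10 counts in every library, with Tomato+ left of Tomato-. Coloured points are 9 of the 10 genes (Vasp did not meet the count minimum), and grey points are the other genes. Actb and Tmsb4x lie low in both panels, and Flna (145%) and Tmsb10 (88.1%) lie high in Tomato- alone.

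The wider actin machinery was read from 6 lists of 100 genes, of which 65 had counts and 31 were tested. None of the 31 passed in edgeR (0 called), and their estimates were higher in Tomato+ for 20 and lower for 11 under TMM, and higher for 18 with scaling by total counts. Among all genes tested, higher estimates also outnumbered lower ones under TMM (median log2 fold change 0.21). With total counts they did not (median -0.03). Among the 7 tested genes of the Arp2/3 complex, which nucleates branched filaments, 5 estimates were higher and 2 lower, with a median log2 fold change of 1.11 under TMM beside 0.21 for all genes tested. Without Tomato- replicates 1, 2 and 5 the Arp2/3 median was 0.048 beside -0.0094 for all genes tested, and leaving out 1 library at a time it ran from 0.28 without Tomato+ replicate 4 to 2.23 without Tomato- replicate 4. The summed Arp2/3 level was 3435 ± 692 CPM in Tomato+, against 2614 ± 803 CPM in Tomato- libraries. Tomato- replicates 1, 2 and 5, with fewer than 1000 detected genes and counts for 3 of the 10 subunit genes each, summed to 1947, 2485 and 1812 CPM. Tomato- replicates 3 and 4 summed to 3094 and 3730 CPM. The Tomato+ range of 2421 to 4255 CPM held Tomato- replicates 2, 3 and 4. Its ends were Tomato+ replicates 2 and 1, both with counts for 5 subunit genes. Arpc2 had 1143 ± 259 CPM in Tomato+, against 1029 ± 233 CPM in Tomato-, while Arpc1b had 496 ± 327 CPM in Tomato+, against 872 ± 446 CPM in Tomato-. These most abundant subunits thus had estimates of opposite sign, at 0.35 and -0.51 on the log2 scale, and both intervals included 0. The 2 tested genes among the other actins, Actc1 and Acta2, had higher estimates in Tomato+, at 0.28 and 0.43 on the log2 scale. Their 95% intervals were wide (-4.51 to 5.07 and -4.04 to 4.89), and the median of all genes tested was 0.21.

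Of the 11 tested genes that recycle monomers, sever or cap filaments, 7 estimates were higher and 4 lower under TMM, against 5 higher and 6 lower with total counts. Gsn, which encodes the severing protein gelsolin, had 3532 ± 1505 CPM in Tomato+, against 2396 ± 1778 CPM in Tomato- libraries (log2 fold change 0.70, 95% interval -0.49 to 1.89). Capzb, a subunit of the barbed-end capping protein, had 900 ± 313 CPM in Tomato+, against 757 ± 352 CPM in Tomato-. Crosslinkers and tropomyosins had 5 higher and 4 lower estimates of 9 tested. Cnn2 (calponin 2) was at 5873 ± 1406 CPM in Tomato+, against 7064 ± 2285 CPM in Tomato-, and Pls1 (plastin 1) was at 831 ± 631 CPM in Tomato+, against 1050 ± 875 CPM in Tomato-.

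Of the 22 nucleation and elongation genes 14 had counts and 2 were tested. Inf2 (a formin) averaged 63.0 ± 78.1 CPM in Tomato+, against 35.8 ± 60.2 CPM in Tomato-, and Abi1 was at 1.48 ± 2.33 CPM in Tomato+, against 265 ± 590 CPM in Tomato-. Abi1 had counts in 2 Tomato+ and 3 Tomato- libraries, and its Tomato- mean came mainly from a library at 1320 CPM.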

How the data were processed

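Polyadenylated RNA of sorted platelets was converted to cDNA by Smart-seq+ and made into Nextera XT libraries, per the labels' protocols. The authors deposited 1 table of raw counts of reads per gene. The submitters' processing notes name Trimmomatic, FastQC, STAR, featureCounts and the build mm10, while tool versions, strand setting and annotation were not given in the sources used here. No molecular identifiers are in these counts, so intervals and floors cover counting error only. Coordinates, lengths and sequences are from GENCODE M21 (GRCm38, the assembly that mm10 names), whose gene names matched 21777 of 23420 symbols (93%).

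CPM used the sum of all rows; CPM, ratios, Wilson intervals and exact permutation tests were computed with SciPy 1.17.1. The gene test was the robust quasi-likelihood F test of edgeR 4.0.16 (R 4.3.3, TMM, default filter with minimum count 10 and minimum total 15), with Benjamini-Hochberg adjustment over all genes tested at 0.05. SE was the fold change over the root of F. The group was the only term, and all 10 libraries (5.41 to 16.2 M counts, M being 1000000) entered. The test was checked on simulated counts, where the tolerance on the estimate of the largest fold was widened after 1 simulation fell short of it. Alternatives were other scalings and filters, DESeq2 1.42.0, limma voom (limma 3.58.1, default and, as a choice made after seeing the data, robust), a replicate block, and leaving out libraries. No pair of libraries agreed within sampling noise (45 pairs, lowest chi-square per degree of freedom 510).

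The 10 genes and the lists were chosen with earlier results of these data known. Named genes are those 10, the 2 with the highest mean CPM of each other list, any list gene past the threshold, and Rn45s. Of these, 1 gene list and 1 marker gene are not reported here. In the titles, sample numbers 1 to 5 are Tomato+ and 6 to 10 are Tomato-, so an effect of this numbering cannot be told apart from the group.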

Additional observations from a re-analysis of the deposited data

Results flagged for a closer look

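Flna stood at 5043 CPM in Tomato- replicate 5, far from the 62.9 to 922 CPM of the other 4 Tomato- libraries. The same library held 15.4 Flna counts per 100 Actb counts, where the other 4 held 0.182 to 3.79. Tmsb10 stood at 0.632 counts per 100 Actb counts in Tomato- replicate 2, where the other 4 Tomato- libraries held 0.0876 to 0.240. In each case the gap to the nearest library, divided by the range of the group, exceeded Dixon's critical value of 0.71 for 5 samples. Of 44 groups of values examined 3 were flagged in this way, and chance flags about 1 in 20. The 2 Flna flags are the same library on different scales.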

How the results depend on the processing

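Of the 10 genes 0 were called under the alternatives run, except that limma voom with its robust option, without the block, called 1, Tmsb4x (log2 fold change 0.55, adjusted p = 0.0407). With the robust option and without the block, the median over all tested genes was 0.95, above the Tmsb4x value. That option was first used, then replaced by the default after the calls were seen, and is given as an alternative added after seeing the data; it called 2 genes with and without the block, and its fold changes are those of voom. Over all alternatives the adjusted p of Tmsb4x ranged from 0.0407 to 0.9999. The genes Tmsb4x, Actb, Tpm4 and Vasp kept the sign of their log2 fold change wherever they were tested. For Actb and Vasp this says little about direction. Actb stood at 0.00027 on total counts (95% interval -0.23 to 0.23), and the main interval of Vasp was -6.38 to 4.50. Vasp was not tested with 10 counts required in every library, nor Actb on its own scale. Over all genes DESeq2 called 216 of 4692 (4.6%), limma voom called 1 of 1016 (0.0984%) and limma voom with the replicate block called 2, where edgeR called 0 (9 at an unadjusted p under 0.05). DESeq2 called 1 gene of the other actin lists, Ssh1, a cofilin phosphatase named after its values were seen, with 1809 and 422 counts in 2 Tomato+ libraries and 0 in all others. For Tmsb10 the log2 fold change turned to 0.080 without the filter, 0.18 in voom, 0.23 and 0.056 in edgeR and voom with the replicate block, and 0.96 without the 3 libraries under 1000 detected genes. Actg1 turned to -0.10 on total counts, -0.15 on Actb counts, -0.024 with DESeq2 size factors, -0.025 with 10 counts required in every library, -0.016 in DESeq2 and -0.16 without those 3 libraries. Pfn1 turned to -0.041 on total counts and -0.033 on Actb counts, and Tagln2 to -0.0060 on total counts. Flna turned to 0.68 in voom, 0.14 in edgeR with the block and 0.45 without the 3 libraries. The causes were not tested. Leaving out 1 library at a time gave -0.34 to 0.46 for Tmsb10, -0.029 to 0.50 for Cfl1, -1.09 to 0.70 for Flna and -0.0227 to 0.00120 percentage points for the Tmsb10 share of thymosin counts, which was 0.0136 without the 3 libraries. The summed share of the 10 genes, 1.19 percentage points higher in Tomato+, became -0.104 for the other 9 with Rn45s and Tmsb4x out of the total. Over 225 genes as a whole, the deviations of same-numbered libraries showed little correlation in replicates 1, 3, 4 and 5 (0.0432, -0.0222, 0.0982 and 0.0166). In replicate 2 the correlation was 0.254. Replicate 2 alone correlated best with its own number, so the block is an alternative only. Single genes could differ from this, as Tmsb4x CPM was highest in replicates 2, 1 and 3, in that order, in both groups. In every same-numbered pair Tmsb4x CPM was higher and Tpm4 CPM lower in Tomato+, while the other genes of the 10 went both ways. EdgeR with the block gave 0.41 for Tmsb4x (edgeR adjusted p = 0.0999) and -0.20 for Tpm4 (edgeR adjusted p = 0.9966). It gave -8.12 for Vasp (-0.94 without) and called 0 genes (17 at an unadjusted p under 0.05).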
